A study of Mus musculus with 6 samples.

Results

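The transcription factor p53, encoded by Trp53, and 9 of its best known direct target genes were followed in primary mouse cortical cultures in which Neurod2 was knocked down. The targets were Mdm2, Ccng1, Cdkn1a, Zmat3, Bax, Bbc3, Pmaip1, Eda2r and Phlda3, and the question put to them was whether knockdown cultures carry a transcriptional sign of DNA damage or cell death signalling. Members were found by position, as loci whose span overlapped the annotated span of the gene by at least 0.5 of their union. All 10 genes were found among the 32357 loci of the table. The overlap ran from 0.867 (Bbc3) to 1.0, and no other locus touched a member gene. Zmat3 had 2 loci at the same position, so that 11 loci met the rule.

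Cells came from the cerebral cortex of E14.5 Balb/c embryos and were nucleofected before plating, all of them with an shRNA plasmid on the pSuperneoGFP backbone. The control group received a non-silencing shRNA (2 libraries) and the knockdown group either of 2 shRNAs against Neurod2 (4 libraries, 2 for each shRNA). By the labels, RNA was taken after 4 days in vitro, while the methods of the study give a different day. The authors' table holds 1 FPKM value per locus and group (fragments per kilobase of transcript, scaled for the number of mapped fragments), in which libraries and both knockdown shRNAs are pooled. FPKM corrects for transcript length, so levels can be set beside each other between genes. No spread between libraries, no depth of a library and no separate value for each shRNA can be read from such values, so every difference given here is without a replicate check and without a test. RNA came from whole cultures, in which fewer cells of a type cannot be told apart from less RNA per cell.

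p53 is held at a low protein level in healthy cells, mainly because MDM2 marks it for degradation, and it is stabilised after DNA damage and other stress. It then binds DNA as a tetramer and switches on genes for cell cycle arrest, for DNA repair, for apoptosis and for its own negative control. In developing cortex, p53 is best known for the apoptosis of progenitors and young neurons that carry damaged DNA. Since p53 is controlled mostly at the level of the protein, the RNA of its targets is the usual readout of its activity.

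Neurod2, the targeted gene, encodes a transcription factor of cortical excitatory neurons. Its level was 105 FPKM in the control and 60.3 FPKM in the knockdown, which is 57.5% of the control level. The marker genes were those of a cortical culture with neurons and glia. The summed level of 6 neuron markers, among them Tubb3, Map2 and Dcx, was 1729.9 FPKM in the control and 1851 FPKM in the knockdown. The 5 astrocyte markers summed to 222 and 209 FPKM but did not move alike. Gfap, the intermediate filament gene of astrocytes, was at 57.4 FPKM in the control and 35.1 FPKM in the knockdown, 1.63-fold lower, while Aldoc was at 69.9 and 76.5 FPKM and Slc1a3 at 87.5 and 90.4 FPKM. The part of this in the members' values was not tested. The 5 markers of the oligodendrocyte lineage summed to 108 and 102 FPKM. Progenitor markers, of which 3 of 5 had a locus, summed to 109 and 96.6 FPKM. Markers of blood vessels and of microglia were close to 0. The 5 endothelial markers summed to 0.16 and 0.30 FPKM, with Cdh5 and Cldn5 listed at 0 in the control, and the microglia markers, of which 3 of 5 had a locus, to 0.197 and 0.504 FPKM. The 6 fibroblast and mural markers summed to 3.97 and 6.12 FPKM but did not move alike. Col1a1 was 7.79-fold higher in the knockdown, Col3a1 4.47-fold and Acta2 3.12-fold, each at a mean below 1 FPKM. Col1a2 and Dcn were close to equal between the groups (log2 ratio 0.01 for each), and Pdgfrb was lower in the knockdown (log2 ratio -0.17).

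None of the 10 genes differed by 1.5-fold between the groups. Trp53, Mdm2 and the arrest genes Cdkn1a and Zmat3 lay within 0.1 of their control level on the log2 scale. The pro-apoptotic gene Bbc3 was lower in the knockdown, with Bax and Phlda3 lower by less, and Ccng1, Eda2r and Pmaip1 were higher, of which Eda2r and Pmaip1 were low in level. Ratios are given as log2 of knockdown over non-silencing after adding 0.1 FPKM to both values, which understates the ratio of low genes. The members' log2 ratios ran from -0.50 (Bbc3) to 0.49 (Eda2r), with a median of -0.02, and 5 were above 0 and 5 below. For comparison, 12535 loci of the table were tested by the authors, had both levels known and had a mean of at least 1 FPKM. All 10 members met these conditions. Their median log2 ratio was -0.03, and the middle 95% of them lay between -0.54 and 0.43. Of these loci, 1.5% were higher and 2.29% lower past 1.5-fold, 3.79% in either direction, and 0 of 10 members is close to that background. Past a log2 ratio of 0.32, a smaller fold, 2 members were higher (Eda2r and Pmaip1) where 3.98% of all loci were, and 1 was lower (Bbc3) where 5.6% of all loci were.

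**Figure D1:**
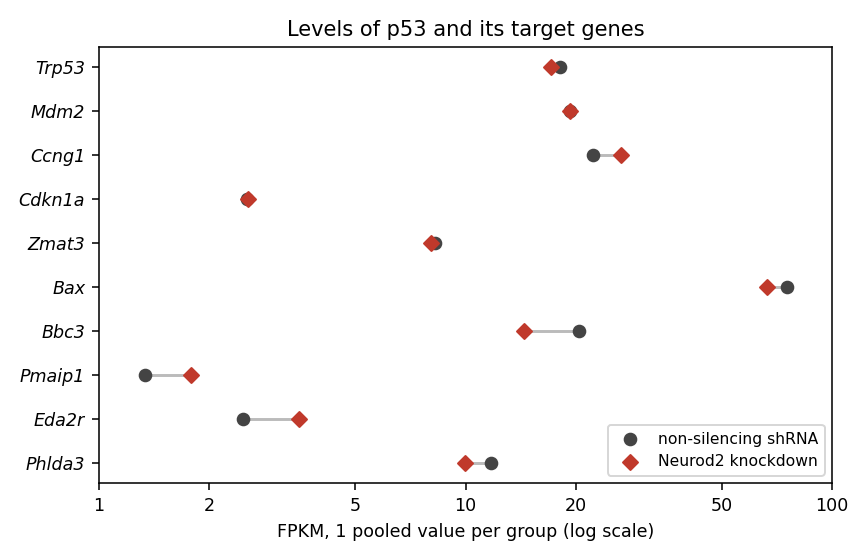
FPKM of Trp53 and its 9 target genes on a log axis, with a dark circle for the non-silencing group and a red diamond for the Neurod2 knockdown, each the authors' value pooled over 2 and 4 libraries, without error bars because the table has none. Levels run from 1.33 FPKM (Pmaip1, control) to 75.2 FPKM (Bax, control), and the symbols of Mdm2 and Cdkn1a coincide.

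Trp53 itself lies on chromosome 11 (mm10, 69580359 to 69591873, plus strand, 11 exons). Its RNA was at 18.1 FPKM in the control and 17.1 FPKM in the knockdown, a log2 ratio of -0.08. Of all compared loci, 57.6% had a ratio at least as far from 0.

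Negative feedback on p53 was read from Mdm2 and Ccng1. Mdm2, the ubiquitin ligase that p53 induces and that in turn removes p53, lies on chromosome 10 (117688875 to 117710758, minus strand, 12 exons). Its level was 19.2 FPKM in each group, with a log2 ratio of 0.00, and 99.8% of compared loci were farther from 0 or as far. Ccng1 encodes cyclin G1, which recruits a phosphatase that acts on MDM2, and lies on chromosome 11 (40748552 to 40755311, minus strand, 6 exons). It was at 22.3 FPKM in the control and 26.5 FPKM in the knockdown, 1.19-fold higher, a log2 ratio of 0.25. These negative regulators thus differed in their ratio, Mdm2 with equal levels and Ccng1 with more RNA in the knockdown. Mdm2 RNA stood at 1.06 times Trp53 RNA in the control and at 1.13 times in the knockdown.

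Cell cycle arrest was read from Cdkn1a, which encodes p21, the inhibitor of cyclin-dependent kinases through which p53 halts proliferation. The gene lies on chromosome 17 (29090976 to 29100727, plus strand, 3 exons). Its level was 2.54 FPKM in the control and 2.55 FPKM in the knockdown, a log2 ratio of 0.01. An unconfirmed gene model on the opposite strand, AC167363.2, covers 10.7% of the locus, and reads of the 2 cannot be told apart without strand. Cdkn1a was thus low in both groups, and Mdm2 exceeded it 7.59-fold in the control and 7.53-fold in the knockdown. Zmat3 encodes a zinc finger protein that binds RNA and acts in growth control downstream of p53, and it lies on chromosome 3 (32334792 to 32366014, minus strand, 6 exons). Its main locus, taken as the one with the higher level, was at 8.28 FPKM and 8.07 FPKM, a log2 ratio of -0.04. The other locus at this position was at 2.07 and 2.12 FPKM, a log2 ratio of 0.03. Both readings of Zmat3 were close to equal between the groups.

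Apoptosis through mitochondria was read from Bax, Bbc3 and Pmaip1. Bax, the pore-forming member of the BCL2 family, lies on chromosome 7 (45461697 to 45466898, minus strand, 6 exons) and was the most abundant member. It was at 75.2 FPKM in the control and 66.3 FPKM in the knockdown (88.3% of the control level), a log2 ratio of -0.18. A protein-coding model on the same strand, Gm45808, overlaps 915 bases of the locus, and reads there could belong to either gene. Bbc3 encodes PUMA, a BH3-only protein that frees BAX from its inhibitors, and it also lies on chromosome 7 (16308393 to 16318205, plus strand, 4 exons). It was at 20.4 FPKM in the control and 14.4 FPKM in the knockdown, 1.42-fold lower, a log2 ratio of -0.50. Of all compared loci, 2.78% had a lower ratio. Pmaip1 encodes NOXA, a BH3-only protein that acts on MCL1, and lies on chromosome 18 (66458533 to 66465565, plus strand, 3 exons). It was at 1.33 FPKM in the control and 1.78 FPKM in the knockdown, 1.34-fold higher, a log2 ratio of 0.39. The BH3-only genes thus had ratios of opposite sign. Bbc3 exceeded Pmaip1 15.3-fold in the control and 8.08-fold in the knockdown, and Bax exceeded Bbc3 3.68-fold and 4.60-fold.

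Eda2r and Phlda3 carry p53 signals at the cell membrane. Eda2r encodes a receptor of the TNF receptor family for ectodysplasin A2 and lies on chromosome X (97333840 to 97377216, minus strand, 8 exons). It was at 2.48 FPKM in the control and 3.51 FPKM in the knockdown, 1.42-fold higher, a log2 ratio of 0.49. This was the highest ratio of the members, and 97.9% of all compared loci had a lower one. Phlda3 encodes a pleckstrin homology protein that competes with AKT for membrane lipids, and lies on chromosome 1 (135766119 to 135769136, plus strand, 2 exons). It was at 11.8 FPKM in the control and 9.96 FPKM in the knockdown (84.6% of the control level), a log2 ratio of -0.24.

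**Figure D2:**
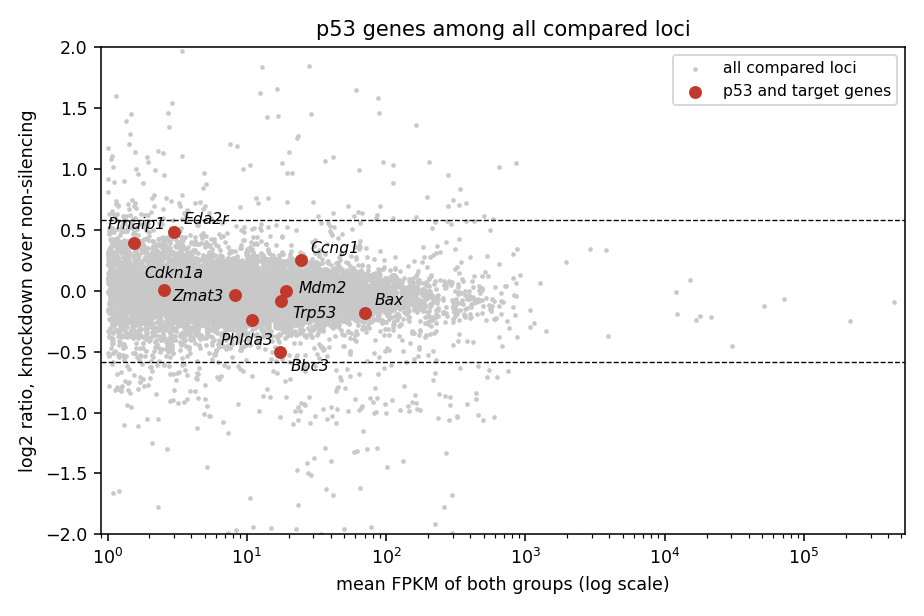
Log2 ratio of knockdown over non-silencing against the mean FPKM of both groups (log axis) for all compared loci (grey) and for Trp53 and its targets (red, named), with dashed lines at 1.5-fold. All 10 genes lie between the dashed lines, and 130 loci with a ratio beyond 2 on the log2 scale lie outside the plotted range.

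The order of the levels was Bax, Ccng1, Bbc3, Mdm2, Trp53, Phlda3, Zmat3, Cdkn1a, Eda2r and Pmaip1 in the control. In the knockdown Bbc3 stood below Mdm2 and Trp53, and Eda2r above Cdkn1a. The highest member exceeded the lowest 56.3-fold in the control and 37.2-fold in the knockdown. With 1 value per group it cannot be said which neighbours in this order differ beyond the spread between libraries.

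The width of the ratios depended on the level, so each gene was also set beside loci of a similar mean FPKM. Between 1 and 5 FPKM, where Pmaip1, Cdkn1a and Eda2r lie, the middle 95% of loci had log2 ratios between -0.55 and 0.59, and all 3 genes were inside this range. Between 15 and 30 FPKM the range was -0.37 to 0.24. Trp53 and Mdm2 were inside it, Bbc3 (-0.50) was below it and Ccng1 (0.25) was just above it. Bax, in the range from 30 to 100 FPKM (-0.80 to 0.32), and Zmat3 and Phlda3, in the range from 5 to 15 FPKM (-0.37 to 0.29), were inside theirs. Of the 10 genes, 2 thus lay outside the middle 95% at their own level.

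**Figure D3:**
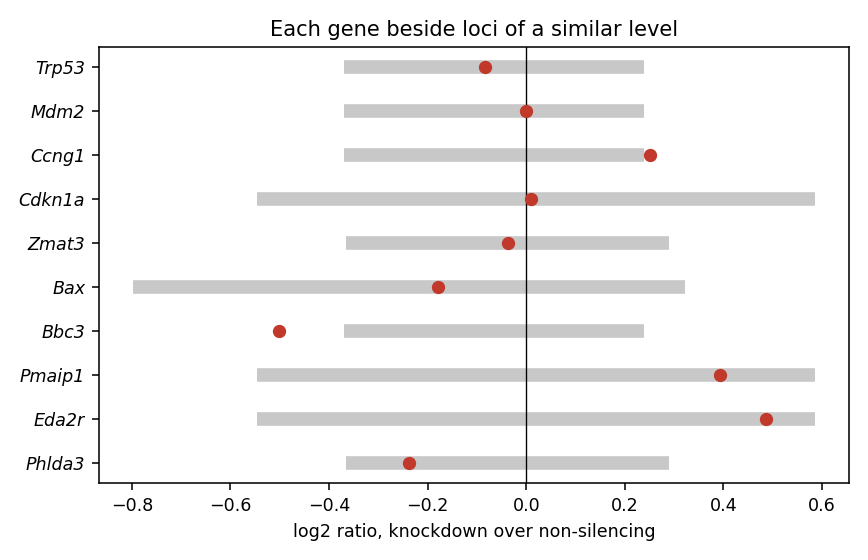
Log2 ratio of knockdown over non-silencing for each gene (red point) on the range that holds the middle 95% of compared loci of a similar mean FPKM (grey bar). Bbc3 lies below its bar and Ccng1 just above its bar, and the other 8 points lie inside.

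The DNA that p53 recognises is a pair of half-sites of 10 bases each. RefSeq promoter windows (GRCm38.p6, 250 bases before to 50 bases after a start) were held for 8 of the 10 genes, in 11 windows, with none for Zmat3 and Pmaip1. They were searched on both strands for 2 adjoining copies of the p53 half-site consensus with at most 2 mismatches in 20 bases. Cdkn1a and Ccng1 had such a sequence, each with 1 mismatch, and they are printed because they are the closest matches among the members (capitals mark bases that match the consensus, lower case the mismatch).
Cdkn1a: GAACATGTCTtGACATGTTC
Ccng1: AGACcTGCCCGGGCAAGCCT
The Cdkn1a sequence lies at chr17:29090928-29090947 on the plus strand, at positions -51 to -32 from the upstream one of 2 annotated starts and 2822 bases before the other. The Ccng1 sequence lies at chr11:40755462-40755481 on the minus strand, at positions -195 to -176 from the start. The best sequence in the windows of Trp53, Bax and Bbc3 had 3 mismatches, and those of Mdm2, Phlda3 and Eda2r had over 4. Of 27025 genes with a window, 0.94% held a sequence with at most 2 mismatches and 0.107% one with at most 1. The members that held one did not share a ratio, with Cdkn1a at 0.01 and Ccng1 at 0.25. A match is a description of the letters, and no match says only that they are not in this window.

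The wider p53 network was described with 6 further lists, each by the members with a mean of at least 1 FPKM. Of the regulators of p53, 15 of 17 had a locus and 11 reached this level, with a median log2 ratio of -0.03. None was higher and 1 lower past 1.5-fold. That gene was Cop1, a ubiquitin ligase for p53, at 664 FPKM in the control and 422 FPKM in the knockdown, and its locus holds an annotated small RNA gene and is 1 of 2 at this position. Next in size of the ratio were Trp53bp2, whose protein binds p53 (9.94 and 8.59 FPKM, log2 ratio -0.21), and the acetyltransferase gene Ep300 (12.5 and 13.5 FPKM, log2 ratio 0.10). The Ep300 locus also holds a small RNA gene. Regulators at a mean of at least 1 FPKM, apart from Cop1, thus had log2 ratios between -0.21 and 0.10. Below that level, log2 ratios were 0.71 for Trp73, 0.31 for Trp63, -0.09 for Cdkn2a and -0.68 for Ppp1r13l.

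Of 36 other direct targets, 34 had a locus and 28 reached 1 FPKM, with a median log2 ratio of -0.01, 13 above 0 and 15 below. None was higher and 1 lower past 1.5-fold. The lower gene was Sesn2, a stress-induced inhibitor of mTORC1 signalling, at 17.7 FPKM in the control and 10.1 FPKM in the knockdown (log2 ratio -0.81). The next largest ratios belonged to low genes that were higher in the knockdown, the epoxide hydrolase gene Ephx1 (2.37 and 3.31 FPKM, log2 ratio 0.46) and the peptide transporter gene Tap1 (1.02 and 1.43 FPKM, log2 ratio 0.46).

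Genes that sense and repair DNA damage had 15 of 16 members with a locus, all 15 above 1 FPKM, and a median log2 ratio of -0.06. None passed 1.5-fold in either direction, 12 were below 0 and 3 above. All compared loci leaned the same way, with a median of -0.03, and 58.4% of them had a ratio below that of Mdm2 (log2 ratio 0.00). The largest ratios were those of the checkpoint kinase gene Chek2 (3.32 and 2.95 FPKM, log2 ratio -0.17), of H2afx, the histone variant phosphorylated at DNA breaks (105 and 94.5 FPKM, log2 ratio -0.16, with a small RNA gene inside the locus), and of the end-joining gene Xrcc5 (11.0 and 9.90 FPKM, log2 ratio -0.14).

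The BCL2 family and the caspases had 21 of 23 members with a locus and 19 above 1 FPKM, with a median log2 ratio of 0.00, 10 above 0 and 9 below, and none past 1.5-fold. The BH3-only gene Bmf was at 1.02 and 1.31 FPKM (log2 ratio 0.33), the BH3-only gene Bad at 28.8 and 25.2 FPKM (log2 ratio -0.19), and the survival gene Bcl2 at 5.11 and 5.79 FPKM (log2 ratio 0.18). The Bad locus is 1 of 2 that met the overlap rule. The Bcl2 locus is 1 of 3 and holds an annotated small RNA gene. Genes of this list at a mean of at least 1 FPKM thus had log2 ratios between -0.19 and 0.33. Below that level, Casp8 was at 0.067 and 0.148 FPKM (log2 ratio 0.57) and Bik at 0.453 and 0.314 FPKM (log2 ratio -0.42).

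Cell cycle genes that p53 lowers through p21 and the DREAM complex had 15 of 18 members with a locus, all above 1 FPKM, with a median log2 ratio of -0.01 and none past 1.5-fold. The mitotic kinase genes Aurkb (17.2 and 14.9 FPKM, log2 ratio -0.21) and Aurka (14.3 and 12.8 FPKM, log2 ratio -0.16) and the cell cycle factor gene Foxm1 (5.61 and 5.03 FPKM, log2 ratio -0.15) had the largest ratios. Genes of proliferating cells were thus detected in both groups at close to equal levels.

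Several p53 targets are also induced by ATF4 and CHOP, transcription factors of the integrated stress response, and 8 genes of that response were listed for this reason. Of these, 7 had a locus and 6 reached 1 FPKM, with a median log2 ratio of -0.73. All 6 were below 0 and 5 were lower past 1.5-fold, where 2.29% of all compared loci were. This list was chosen with earlier results of these data known, and the study names Chac1, Sesn2 and Ddit4 among its changed genes. The count is therefore a description and no independent finding. The glutathione-degrading enzyme gene Chac1 was at 30.8 FPKM in the control and 15.8 FPKM in the knockdown (log2 ratio -0.96), and the pseudokinase gene Trib3 at 1.97 and 0.971 FPKM (log2 ratio -0.95). Sesn2, given above as a p53 target, belongs to this list as well. The mTORC1 inhibitor gene Ddit4 was at 63.9 and 40.9 FPKM (log2 ratio -0.64) and the asparagine synthetase gene Asns at 132 and 86.2 FPKM (log2 ratio -0.61), while Atf4 itself was at 193 and 150.3 FPKM (log2 ratio -0.36). No locus of Ddit3, which encodes CHOP, met the overlap rule.

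**Figure D4:**
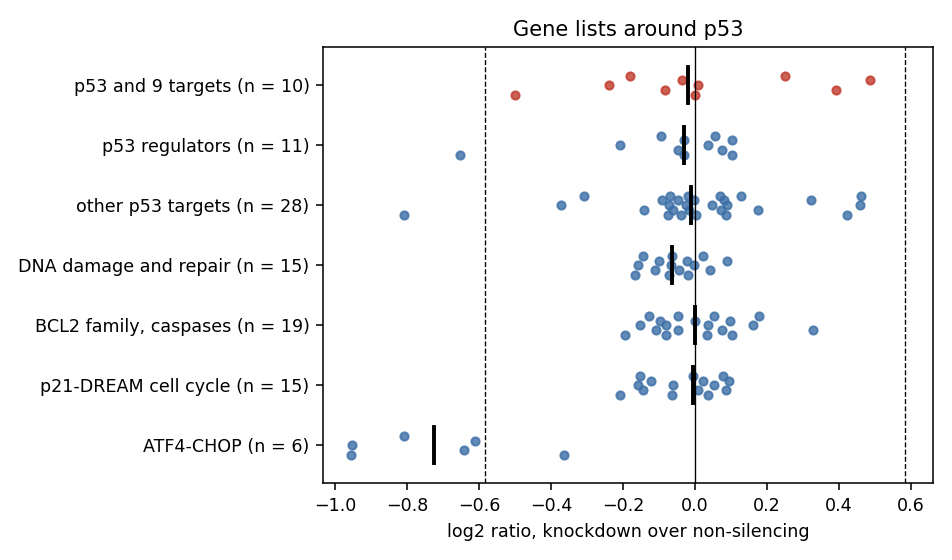
Log2 ratio of knockdown over non-silencing for the genes of each list with a mean of at least 1 FPKM, 1 point per gene, with a black bar at the median of each list and dashed lines at 1.5-fold. Trp53 and its 9 targets (red) and 5 of the lists spread around 0, and the points of the ATF4 and CHOP list all lie below 0.

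A few listed genes stayed below a mean of 1 FPKM, and they were picked out after their values were seen. The p53 relative Trp73 was at 0.353 and 0.638 FPKM, the desmosome gene Perp at 0.920 and 0.568 FPKM, and the stress cytokine gene Gdf15 at 0.269 and 0.157 FPKM.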

How the data were processed

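Single-end reads of 50 bp were aligned by the authors with TopHat (mm10), followed by Cufflinks assembly and a Cuffdiff comparison, tool names being those of the submitters' processing notes and versions not being given in the sources used. In the deposited table each locus has 1 FPKM value for either group, computed by the authors over the pooled libraries, beside the authors' own log2 fold change, test statistic, p-value and q-value, none of which is reported here. A spreadsheet had turned many cells into times of day or shifted their decimals. Possible numbers were listed for each such cell, and a pair was kept when it alone gave the deposited log2 fold change within the rounding of 6 digits, the only use made of that column. This restored 4718 of 4732 altered tested loci and left 14 open. Cells of 5 members (Trp53, Mdm2, Ccng1, Bbc3 and Phlda3) were restored, each with a single reading. The decoding was tested on simulated data.

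Loci were named from GENCODE M21 (GRCm38, the assembly of mm10) at an overlap of at least 0.5 of the union, and of several loci for a gene the best overlap and then the higher level was taken. Log2 ratios used a pseudocount of 0.1 FPKM. With 1 pooled value per group no test, interval or SD was possible, and the depth behind each value is unknown. Named genes are all members, Neurod2, the 3 genes of each p53 network list with the largest absolute ratio at a mean of at least 1 FPKM, and every listed gene past 1.5-fold there, Gfap among the cell type markers included. Other markers, Atf4, Ddit3 and genes below 1 FPKM were named outside this rule, after their values were seen. Members and lists were chosen with earlier results of these data known. Python 3.11.15, numpy 2.4.6 and pandas 2.3.3 were used. Alternatives were other pseudocounts, folds, level filters, overlaps, sums over loci, centring on the median locus and leaving out loci with a small RNA gene.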

Additional observations from a re-analysis of the deposited data

How the results depend on the processing

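Of 81 alternative values, 75 differed little from the values reported (log2 ratios by under 0.097, counts and shares by under 1.5 times) and 6 moved further. The sign turned in 1, the members' median, which was -0.02 and became 0.01 when centred on the median of compared loci. Several of the 75 values could not move. All members were tested, had a mean of at least 1 FPKM and overlapped by at least 0.867. The settings for tested loci, that mean and other overlaps thus repeated the members' values. Centring shifted every log2 ratio by the same 0.03, which is under the limit of 0.097. The 75 are therefore no measure of how robust the results are. With a log2 ratio of 0.32 as the limit in place of 1.5-fold, 2 members were higher and 1 was lower, against 0 and 0. Without loci that hold a small RNA gene, 1.27% of compared loci were lower past 1.5-fold, against 2.29%, and no member holds such a gene. A pseudocount of 1 FPKM took the log2 ratio of Pmaip1 to 0.25, that of Eda2r to 0.38 and the median of the ATF4 and CHOP list to -0.62. No paired analysis was possible because the values are pooled by group, and for the same reason leaving out a library was not run. The planned searches for p53 sites in wider windows around the starts were not run, since only promoter windows were held here. With the depth unknown, values near 1 FPKM rest on an unknown number of reads.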
